A study of Mus musculus with 6 samples.

Results

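A set of 10 genes that sense, move or modify bile acids was examined in the colon of mice prone (OP) or resistant (OR) to obesity. They were taken by gene symbol from the deposited expression table, which lists all of them among 17778 genes. They comprise the enzymes *Cyp7b1* and *Cyp27a1*, the receptors *Nr1h4* and *Gpbar1*, the receptor targets *Nr0b2* and *Fgf15*, and the transport genes *Slc10a2*, *Fabp6*, *Slc51a* and *Slc51b*. Both groups were wild-type male C57BL/6J mice, 21 weeks old, that had eaten the same diet with 60% fat for 16 weeks, so no mouse on a normal diet enters the comparison. Of 42 mice on this diet, the 10 that gained the most weight were defined as OP and the 10 that gained the least as OR. Sequencing covered the colon RNA of 3 mice per group, with 1 library per mouse. The comparison asks which colonic genes differ between mice that responded differently to one diet.

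Bile acids are made from cholesterol in the liver, are secreted into the gut and are largely taken back in the ileum, while bacteria in the colon turn the rest into secondary bile acids. The classic route of synthesis starts with *Cyp7a1*, and the alternative route with *Cyp27a1*, which adds a hydroxyl group to the cholesterol side chain, followed by *Cyp7b1*, which hydroxylates the resulting oxysterols. Inside enterocytes, the nuclear receptor FXR, encoded by *Nr1h4*, is switched on by bile acids and drives *Nr0b2*, *Fgf15*, *Fabp6* and both subunits of the basolateral exporter OSTα-OSTβ. *Gpbar1* encodes TGR5, a bile acid receptor at the cell surface.

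The promoters of the 4 transport genes are shown because 3 of these genes ranged most widely between mice among the 7 genes past the filter on low values, because the exporter needs both its subunits, and because FXR acts on such genes through short DNA elements. FXR binds with its partner RXR to pairs of the hexamer AGGTCA, above all to an inverted repeat in which the hexamer and its reverse complement TGACCT are parted by 1 base. The 250 bases before each start site are given 5′ to 3′ from RefSeq, on GRCm38.p6, an earlier build than the GRCm39 that the authors used. Of the 10 genes, 8 were matched to this table by symbol, and *Cyp7b1* and *Fgf15* were not. Capitals mark inverted repeats with at most 1 mismatch in each hexamer, and exact single hexamers on either strand.
*Slc10a2* (chr8:5105288-5105537, minus strand): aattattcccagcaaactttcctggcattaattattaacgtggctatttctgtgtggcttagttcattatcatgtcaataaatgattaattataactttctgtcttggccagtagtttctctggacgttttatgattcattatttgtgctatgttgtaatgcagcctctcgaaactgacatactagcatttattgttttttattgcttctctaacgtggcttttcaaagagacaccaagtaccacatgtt
*Fabp6* (chr11:43601563-43601812, minus strand): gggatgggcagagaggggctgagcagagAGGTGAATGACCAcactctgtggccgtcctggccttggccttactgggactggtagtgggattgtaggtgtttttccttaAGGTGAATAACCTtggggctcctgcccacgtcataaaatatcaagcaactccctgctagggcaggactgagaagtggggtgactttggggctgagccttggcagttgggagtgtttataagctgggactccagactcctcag
*Slc51a* (chr16:32487880-32488129, minus strand): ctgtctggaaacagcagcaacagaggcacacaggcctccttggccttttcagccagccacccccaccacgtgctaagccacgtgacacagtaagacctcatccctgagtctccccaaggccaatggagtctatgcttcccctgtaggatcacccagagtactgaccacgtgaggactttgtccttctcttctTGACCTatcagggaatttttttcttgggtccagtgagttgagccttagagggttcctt
*Slc51b* (chr9:65422774-65423023, minus strand): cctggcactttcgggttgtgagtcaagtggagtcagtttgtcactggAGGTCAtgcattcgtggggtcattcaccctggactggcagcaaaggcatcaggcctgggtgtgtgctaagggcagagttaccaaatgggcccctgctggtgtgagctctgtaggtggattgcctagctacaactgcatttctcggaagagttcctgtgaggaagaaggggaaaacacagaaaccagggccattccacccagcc
Of these 4 promoters, *Fabp6* holds inverted repeats, 2 in number, which lie 222 to 210 and 142 to 130 bases before the start. Such a repeat was found in 203 of 32851 promoter windows of the same length, or 0.618%, and in 1 of the 8 matched genes. An exact hexamer, counted also where it lies within a repeat, was found in 14.0% of all windows and in 3 of the 8 genes, *Slc51a*, *Slc51b* and *Nr1h4*. These are matches of letters in a short window and say nothing of binding.

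Expression is given as FPKM, fragments mapped per unit of transcript length and of library size, a scale on which levels of different genes can be compared. FPKM values summed to between 585350 and 600028 in a mouse, and read totals and counting error are unknown. Colon identity was checked by marker genes. *Car1*, a carbonic anhydrase of colonocytes, was at 1054 to 15723 FPKM, *Guca2a*, which encodes guanylin, at 2881 to 4401 FPKM, and the water channel gene *Aqp8* at 10.1 to 1084 FPKM. Of the small-intestinal markers, the lactase gene *Lct* was at 0.05 FPKM or lower in all 6 mice and the transcription factor gene *Gata4* at 0.49 FPKM or lower. Others of that list were detected, with *Apob* at 15.7 to 56.5 FPKM, the lysozyme gene *Lyz1* at 4.37 to 21.1 FPKM and the sucrase gene *Sis* at 0.08 to 10.1 FPKM. Among the 13520 genes past the filter on low values, OP mouse 1 was over 2-fold below all other mice on the FPKM + 1 scale in 187 genes and OP mouse 2 in 92, against 1 to 6 genes in each of the other 4 mice.

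OP mouse 2 also stood apart in genes that mark position along the gut. *Hoxb13*, of the most posterior class of Hox genes, was at 46.9 FPKM in OP mouse 2 and at 1.29 FPKM or lower in the other 5 mice. *Hoxa13*, of the same class, was at 29.5 FPKM against 0.27 to 3.58 FPKM. *Hoxd10* showed the opposite order, with 0.04 FPKM in OP mouse 2 and 2.60 to 6.80 FPKM in the others. The hormone gene *Insl5* of colonic L cells was at 61.5 FPKM against 0.75 to 4.5 FPKM. The labels and methods do not say which stretch of the colon was taken from each mouse, and the part of position in the results below was not tested. In whole tissue, fewer cells of a type and less RNA per cell cannot be told apart.

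The 10 genes spanned the whole range of expression. *Slc51a* had the highest mean, 174 FPKM over the 6 mice, above 97.0% of all listed genes, followed by *Nr1h4* with 110 FPKM, *Slc51b* with 96.1 FPKM, *Slc10a2* with 46.3 FPKM, *Fabp6* with 29.1 FPKM and *Cyp27a1* with 19.2 FPKM. *Cyp7b1* followed at 0.537 FPKM and *Gpbar1* at 0.338 FPKM, and *Fgf15* and *Nr0b2* were close to 0. Within single mice the order of neighbours was not fixed. *Slc51a* was above *Nr1h4*, and *Nr1h4* above *Slc51b*, in 5 of 6 mice each, while *Fabp6* was above *Cyp27a1* in 2 of 6. The step from *Cyp27a1* to *Cyp7b1* held in 6 of 6 mice.

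**Figure D1:**
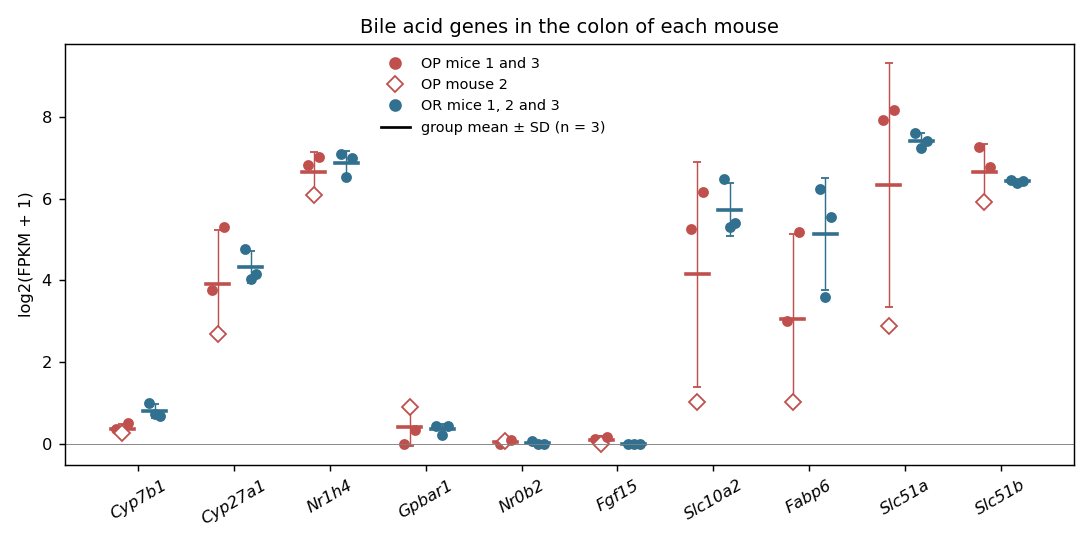
Expression of the 10 bile acid genes in each mouse, as log2(FPKM + 1), with OP mice in red, OR mice in blue and OP mouse 2 as an open diamond (bars, group mean ± SD, n = 3). OP mouse 2 lies far below the other 5 mice in *Slc10a2* and *Slc51a*, and *Cyp7b1* is the gene in which the OP and OR mice do not overlap.

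OP and OR mice were compared by limma-trend on log2(FPKM + 1), and the call needed a ratio of OP to OR of 1.2 or more, or of 0.83 or less, together with a Benjamini-Hochberg adjusted p below 0.2. Of the 10 genes, 7 passed the filter of at least 0.5 FPKM in at least 3 mice, and 0 of the 7 were called, against 0.0222% of all genes tested. At an unadjusted limma-trend p below 0.05, 1 of the 7, *Cyp7b1*, was lower in OP mice, against 3.53% of all genes tested. The adjusted p of the 7 genes lay between 0.945 and 0.948. Over all 10 genes, fitted without the filter, the estimate was lower in OP mice for 6 and higher for 4.

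Both enzymes of the alternative route were detected, at very different levels. *Cyp7b1* had 0.30, 0.20 and 0.42 FPKM in OP mice 1, 2 and 3 and 1.01, 0.67 and 0.62 FPKM in OR mice 1, 2 and 3. No OP mouse reached the lowest OR mouse, a pattern shared by 6.81% of all genes tested. OP mice averaged 0.307 ± 0.110 FPKM (SD, n = 3) and OR mice 0.767 ± 0.212 FPKM (SD, n = 3), a 2.5-fold higher mean. The log2 fold change on log2(FPKM + 1), which understates the change of a gene this low, was -0.43 (standard error 0.16, 95% confidence interval -0.82 to -0.05, limma-trend adjusted p = 0.945). A two-sided exact permutation test gave p = 0.1, the smallest that 3 mice against 3 allow.

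*Cyp7b1* passed the filter through the OR mice, which were all at or above 0.5 FPKM while 0 of the OP mice were, so the filter itself favoured a difference in this gene. Fitted without the filter, it again had an unadjusted limma-trend p below 0.05, as did 3.69% of all genes in this direction, and its adjusted p was 0.819. Without OP mouse 1 or OP mouse 2 its unadjusted p was above 0.05. Without any 1 of the OR mice the gene no longer passed the filter.

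Markers of connective tissue differed between the groups in the same direction as *Cyp7b1*. All 9 fibroblast markers and all 8 endothelial markers examined had a lower estimate in OP mice. In each list 7 had an unadjusted limma-trend p below 0.05, against 3.53% of all genes tested in this direction. The summed level of the fibroblast markers was 109 to 192 FPKM in OP mice and 276 to 484 FPKM in OR mice, and that of the endothelial markers 12.7 to 23.3 FPKM and 24.5 to 44.1 FPKM. Of 10 macrophage markers all were lower, 8 of them at an unadjusted p below 0.05. In 7 of the 10 the groups did not overlap, against 6.81% of all genes tested in this direction. The sums of the macrophage markers, of 81.9 to 257 FPKM in OP mice and 182 to 249 FPKM in OR mice, overlapped through the most abundant of them, *Lyz2*. Without it they were 33.2 to 90.9 FPKM and 98.0 to 131 FPKM. All 8 smooth muscle markers were lower as well, 0 of them at this level, with sums of 1523 to 2342 FPKM and 1863 to 3410 FPKM. No marker was called. The part of these cells in the *Cyp7b1* difference was not tested. Of all genes tested, *Mxra8*, *Serinc1*, *Adamtsl1*, *Tnxb* and *Pfdn1* followed *Cyp7b1* most closely over the 6 mice, with Pearson's r of 0.982 to 0.993 on log2(FPKM + 1), a ranking of 13520 genes over 6 points in which the points share their group difference.

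*Cyp27a1*, the mitochondrial sterol 27-hydroxylase, had 12.5, 5.44 and 38.3 FPKM in OP mice 1, 2 and 3 and 26.3, 15.5 and 16.98 FPKM in the OR mice. The lowest and the highest of the 6 values were both in OP mice. OP mice averaged 18.7 ± 17.3 FPKM (SD, n = 3) and OR mice 19.6 ± 5.88 FPKM (SD, n = 3), and the log2 fold change was -0.41 (95% confidence interval -1.81 to 0.98). Without OP mouse 2 it was 0.20, and without OP mouse 3 it was -1.11 with an unadjusted limma-trend p below 0.05. In the latter fit 1094 of 13340 genes were lower in OP mice at this level. The limma-trend adjusted p of *Cyp27a1* was then 0.470.

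The nuclear receptor was abundant and the surface receptor scarce. *Nr1h4* had 112, 66.9 and 129 FPKM in the OP mice and 135, 90.5 and 126 FPKM in the OR mice. OP mouse 2 was the lowest, and the other OP values lay within the range of the OR mice. The log2 fold change was -0.22 (95% confidence interval -0.85 to 0.40), and 0.05 (95% confidence interval -0.42 to 0.53) without OP mouse 2. *Gpbar1* did not pass the filter. It had 0.00, 0.88 and 0.27 FPKM in the OP mice and 0.35, 0.17 and 0.36 FPKM in the OR mice, so that OP mice held both ends of the range.

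Of the receptor's targets, those that act as feedback signals were close to 0 although *Nr1h4* was high. *Nr0b2*, which encodes the repressor SHP, was at 0.07 FPKM or lower in all 6 mice. *Fgf15*, the hormone by which the ileum lowers bile acid synthesis in the liver, was at 0.09, 0.00 and 0.13 FPKM in the OP mice and was listed at 0 in all 3 OR mice. At these levels no difference between OP and OR mice could be read for either gene.

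The transport genes carry bile acids through the enterocyte in sequence, from uptake through the cytosol to export. *Slc10a2* encodes ASBT, the apical sodium-dependent uptake transporter. It had 37.1, 1.03 and 71.0 FPKM in OP mice 1, 2 and 3 and 88.8, 38.3 and 41.5 FPKM in the OR mice. OP mouse 2 was 36.0-fold below the next lowest mouse, while OP mice 1 and 3 lay close to or within the OR range. The log2 fold change was -1.58 (95% confidence interval -4.41 to 1.24) over 6 mice and -0.02 (95% confidence interval -1.02 to 0.97) without OP mouse 2.

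*Fabp6*, the bile acid binding protein of the cytosol whose promoter holds the 2 inverted repeats, had 7, 1.03 and 35.1 FPKM in the OP mice and 74.2, 11.2 and 45.9 FPKM in the OR mice. OP mice 1 and 2 were below all OR mice, and OP mouse 3 lay between them. OP mice averaged 14.4 ± 18.2 FPKM (SD, n = 3) and OR mice 43.8 ± 31.6 FPKM (SD, n = 3). *Fabp6* had the largest estimate of the 7 genes tested, a log2 fold change of -2.06 (standard error 1.06, 95% confidence interval -4.56 to 0.43, limma-trend adjusted p = 0.945). Without OP mouse 2 it was -1.04, and without OP mouse 3 it was -3.12 and without OR mouse 2 -2.83, the last 2 with an unadjusted limma-trend p below 0.05. At this level 1094 of 13340 genes were lower in OP mice without OP mouse 3, and 512 of 13394 without OR mouse 2. The limma-trend adjusted p of *Fabp6* was 0.420 and 0.853 in these fits. Small-intestinal markers did not share 1 order with *Fabp6*. *Sis*, at 0.40, 0.08 and 8.76 FPKM in the OP mice and 10.1, 1.06 and 3.84 FPKM in the OR mice, was also lowest in OP mice 1 and 2 and OR mouse 2. *Ada*, of the same list, was highest in just these mice, with 7.95 and 8.42 FPKM in OP mice 1 and 2 and 8.15 FPKM in OR mouse 2, against 3.43 to 4.56 FPKM in the others. *Sis* and *Ada* were picked after their values were seen.

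*Slc51a* and *Slc51b* encode the subunits OSTα and OSTβ, which export bile acids only as a pair. *Slc51a* had 242, 6.44 and 287 FPKM in the OP mice and 194, 149 and 168 FPKM in the OR mice. OP mouse 2 was 23.1-fold below the next lowest mouse, and the other OP mice were both above all OR mice. The mean FPKM was slightly higher in OP mice, 178 ± 151 (SD, n = 3) against 170 ± 22.8 (SD, n = 3), whereas the log2 fold change was -1.08 (95% confidence interval -4.06 to 1.90), because the log scale gives the low value of OP mouse 2 more weight. *Slc51b* had 153, 59.8 and 109 FPKM in the OP mice and 86.8, 82.9 and 85.5 FPKM in the OR mice. OP mouse 2 was again the lowest and the other OP mice again the highest, while the OR mice differed little from each other. The log2 fold change was 0.23 (95% confidence interval -0.49 to 0.95).

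Without OP mouse 2, the estimate of *Slc51a* changed sign and that of *Slc51b* grew. The mean of OP mice 1 and 3 was then 1.55 times that of the OR mice for *Slc51a* and 1.54 times for *Slc51b*. The log2 fold change was 0.64 (standard error 0.17, 95% confidence interval 0.23 to 1.04) for *Slc51a* and 0.59 (standard error 0.17, 95% confidence interval 0.18 to 1.01) for *Slc51b*. OP mouse 2 had been seen to be the lowest of the 6 in both genes, so that its removal had to raise both estimates, and these values are a description. The groups then did not overlap in either gene, as in 5.81% of all genes in this direction. The limma-trend adjusted p was 0.770 for both, and 0 were called. Without OP mouse 1 the log2 fold changes were -1.88 for *Slc51a* and -0.08 for *Slc51b*, and without OP mouse 3 they were -2.00 and 0.17. Each of these estimates rests on 2 OP mice.

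**Figure D2:**
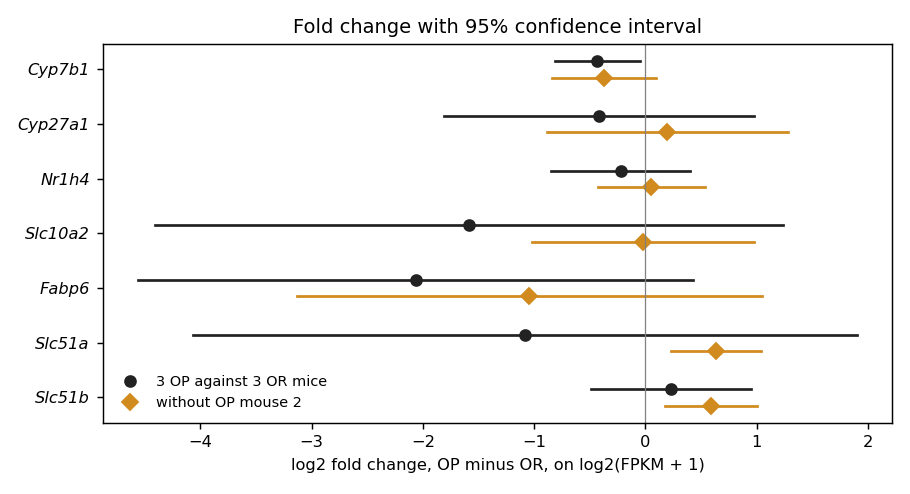
Log2 fold change, OP minus OR, of the 7 genes past the filter, with 95% confidence intervals, over all 6 mice (black) and without OP mouse 2 (orange). Without this mouse the intervals of *Slc51a* and *Slc51b* lie above 0, and *Slc10a2* moves from -1.58 to -0.02.

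The ratio of the exporter subunits within a mouse varied little among the OR mice. OP mice 1 and 3 lay on either side of the OR range, and OP mouse 2 lay far above all others. The log2 ratio of *Slc51b* to *Slc51a*, on FPKM + 1, was -0.66 and -1.39 in OP mice 1 and 3 and -1.15, -0.84 and -0.96 in the OR mice, but 3.03 in OP mouse 2. The difference between the groups was 1.31 (two-sided exact permutation p = 0.6, adjusted p = 0.8 over 4 ratios). The log2 ratio of *Cyp7b1* to *Cyp27a1* averaged -3.53 ± 1.19 in OP and -3.51 ± 0.23 in OR mice (SD, n = 3 each), with a two-sided exact permutation p of 1. The other 2 ratios, of *Nr0b2* and *Fgf15* to *Nr1h4*, rest on targets close to 0, and no difference was read from them.

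OP mouse 2 had the lowest value of the 6 mice in 7 of the 10 genes, the 7 that passed the filter. Of all 13520 genes past the filter it was the lowest in 17.2%. This mouse was singled out after its values were seen. Its epithelial markers were not low on average, but single markers differed, with *Krt18* the highest and *Cldn3* the lowest of the 6 mice. Among colonocyte markers, the log2 fold change ran from -0.94 (95% confidence interval -3.06 to 1.19) for *Car1* to 2.93 (95% confidence interval -0.84 to 6.70) for *Aqp8*, whose level was 1060, 1084 and 39.4 FPKM in the OP mice and 10.1, 358 and 25.3 FPKM in the OR mice. *Car1* was lowest in OP mouse 2, at 1054 FPKM against 4836 to 15723 FPKM in the others, while *Aqp8* was highest in this mouse. The part of the colonocyte markers in the results on the transport genes was not tested. The 8 enteroendocrine markers summed to 79.0 to 600 FPKM in OP mice and 132 to 357 FPKM in OR mice. The 11 small-intestinal markers listed summed to 38.1 to 78.2 FPKM and 32.3 to 59.9 FPKM, and the 6 hepatocyte markers to 22.6 to 40.6 FPKM and 17.8 to 26.5 FPKM. A single gene made up the largest part of each sum, *Apob* at 15.7 to 56.5 FPKM and *Tat* at 11.6 to 31.3 FPKM. The hepatocyte marker *Alb* was at 0.72 FPKM or lower. Averaged over 13 epithelial markers, log2(FPKM + 1) lay between 9.15 and 9.50 in the 6 mice, and OP mouse 2 was the highest. Taken relative to this average, the difference between OP and OR mice was -0.53 on the log2 scale for *Cyp7b1*, where the groups again did not overlap (two-sided exact permutation p = 0.1), -1.69 for *Slc10a2* (p = 0.4), -2.17 for *Fabp6* (p = 0.2) and 0.13 for *Slc51b* (p = 0.9).

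**Figure D3:**
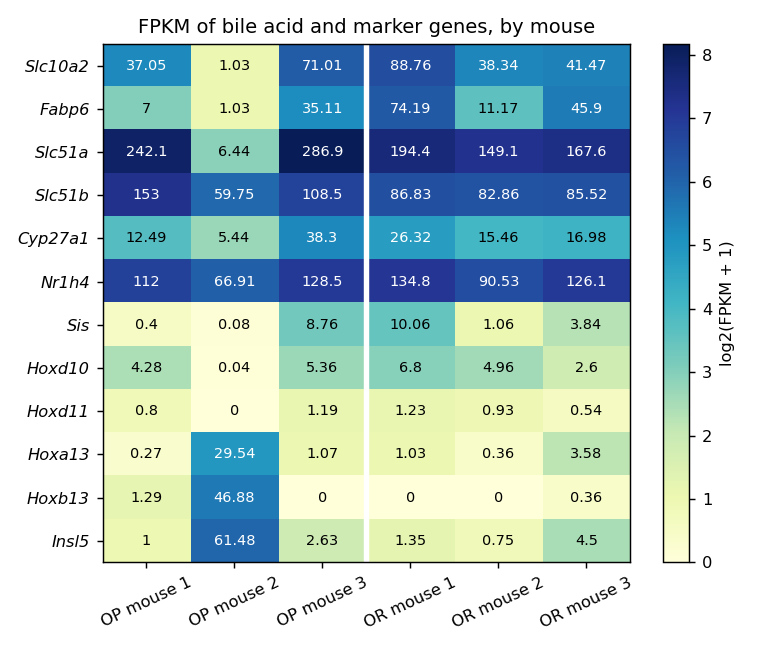
FPKM of 6 bile acid genes and of 6 genes that mark small intestine (*Sis*), position (*Hoxd10*, *Hoxd11*, *Hoxa13*, *Hoxb13*) or L cells (*Insl5*) in each mouse, with colour on a log2(FPKM + 1) scale. In OP mouse 2, *Slc10a2*, *Fabp6* and *Slc51a* are at 1.03, 1.03 and 6.44 and *Hoxb13* is at 46.9.

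The wider bile acid pathway was examined in 46 further genes listed by role, of which 45 were in the table (*Cyp7a1* was not analysed here) and 30 passed the filter. By limma-trend, 0 of the 30 were called and 0 had an unadjusted p below 0.05. The median log2 fold change was 0.01, with 14 genes lower and 16 higher in OP mice, beside a median of -0.10 over all genes tested. Without OP mouse 2, *Nr1i2* (log2 fold change 0.54) and *Scp2* (0.34) were higher at an unadjusted limma-trend p below 0.05 among 29 genes, against 1.28% of all genes tested, and both had a limma-trend adjusted p of 0.770.

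Among 10 genes of synthesis tested, 3 were lower and 7 higher in OP mice. *Scp2* and *Hsd17b4*, which shorten the sterol side chain in peroxisomes, had means of 158 and 78.1 FPKM in OP mice and 144 and 76.0 FPKM in OR mice. The thioesterase *Acot8* had 43.2 ± 1.63 FPKM in OP mice and 40.8 ± 4.08 FPKM in OR mice (SD, n = 3 each). In 1 of the 30 pathway genes the groups did not overlap, with OP mice lower, against 6.81% of all genes tested, so the list held no excess of such genes. This was *Ch25h*, named after its values were seen, which makes the 25-hydroxycholesterol that *Cyp7b1* hydroxylates. It had 0.97, 0.35 and 1.02 FPKM in the OP mice and 1.33, 1.09 and 1.14 FPKM in the OR mice (log2 fold change -0.32, 95% confidence interval -0.80 to 0.16).

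The most abundant of the other receptors and regulators were *Hnf4a*, *Vdr* and *Nr1i2*. *Vdr*, the vitamin D receptor, had 187 ± 59.8 FPKM in OP and 163 ± 31.9 FPKM in OR mice (SD, n = 3 each). *Nr1i2*, which encodes the xenobiotic receptor PXR, had 58.4 ± 14.2 and 45.6 ± 6.74 FPKM, and *Hnf4a*, a regulator of intestinal identity and of bile acid genes, had 327 ± 32.8 and 294 ± 13.1 FPKM (SD, n = 3 each). Of the 10 genes tested in this list, 6 were lower and 4 higher in OP mice.

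The efflux pump genes *Abcb1a*, *Abcc3* and *Abcg2* had log2 fold changes of 0.37, 0.17 and 0.44, with 95% confidence intervals that all held 0. Of the detoxifying enzymes, *Ugt1a1*, a glucuronosyltransferase, had 141, 49.2 and 236 FPKM in the OP mice and 212, 152 and 144 FPKM in the OR mice, again lowest in OP mouse 2. *Cyp3a13*, a cytochrome P450, and the sulfotransferase *Sult2b1* had log2 fold changes of 0.40 and 0.38, again with intervals that held 0.

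**Figure D4:**
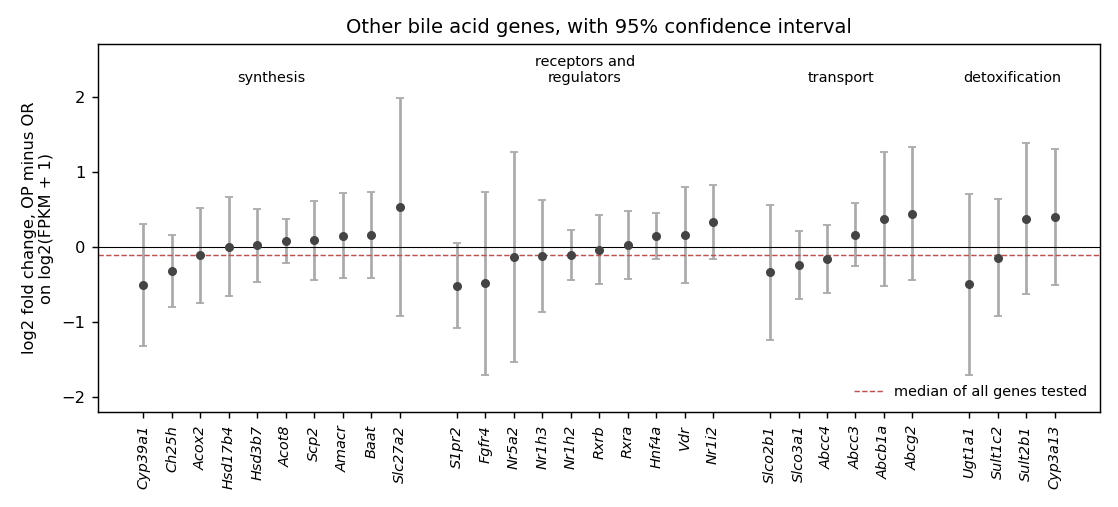
Log2 fold change, OP minus OR, with 95% confidence intervals for 30 further bile acid genes past the filter, ordered by role and value. All 30 intervals include 0, and the estimates lie between -0.51 and 0.54, around the median of all genes (dashed, -0.10).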

How the data were processed

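Colon RNA of 3 OP and 3 OR mice was analysed from the FPKM values deposited by the authors, rounded to 2 decimals. Per the methods, reads passed through SOAPnuke, were mapped with Bowtie2 to a GRCm39 gene set and were quantified by RSEM. The labels and the methods give different versions of these tools, and the submitters' processing notes also name HISAT2 2.0.4. FPKM keeps no read totals, so depth is unknown.

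Samples were grouped by their labels. Differences between OP and OR were estimated with limma-trend on log2(FPKM + 1), using limma 3.58.1 in R 4.3.3, fitted without covariates on the 13520 genes with at least 0.5 FPKM in at least 3 mice, with Benjamini-Hochberg adjustment over all of them. The fit was tested on simulated data with changes planted in abundant genes only. This says nothing of a gene as low as *Cyp7b1* or of a group with 1 outlying mouse. DESeq2, which the authors used, needs counts. Single values were compared by exact permutation. The members, gene lists and tests were chosen with earlier results of these data known. Named genes were all 10 members, the 3 most abundant genes of each further pathway list, those with an unadjusted p below 0.05 and the 5 genes most like *Cyp7b1*. *Ch25h* and single marker genes were named after their values were seen. Nothing says that mice shared a litter or cage, and p-values measure the spread between these mice. Marker lists covered epithelium, colonocytes, small intestine, distal Hox genes, macrophages, fibroblasts, endothelium, smooth muscle, enteroendocrine cells and hepatocytes. The colonocyte list is given by single genes, because results that need a withheld item are not reported here.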

Additional observations from a re-analysis of the deposited data

How the results depend on the processing

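Of the 7 genes tested over the 6 mice, 0 were called. Under all alternatives run, leave-one-out fits included, 0 members were called as well, although the members tested differed with the filter and scaling. At an unadjusted limma-trend p below 0.05, 1 member passed, 0 with FPKM of at least 1 in all mice, where *Cyp7b1* is not tested, and 3 with sample weights. With each mouse left out this count ranged from 0 to 3, with 0 without OP mouse 1, OR mouse 1 or OR mouse 3, 2 without OP mouse 2 and 3 without OP mouse 3. In the fits without an OR mouse *Cyp7b1* no longer passed the filter and was not tested, so it could not count there. The count over all genes moved as well. It was 477 lower and 68 higher in OP mice of 13520 over the 6 mice, and 656 and 146 with sample weights. Without OP mouse 2 it was 615 and 172 of 13405, and without OP mouse 3 1094 and 178 of 13340. Without OR mouse 3 it was 223 and 24 of 13366. *Cyp27a1*, *Nr1h4* and *Slc51a* changed sign without OP replicate 2, to 0.198, 0.0549 and 0.635. *Slc51b* changed sign with sample weights (-0.0649) and without OP replicate 1 (-0.0771). *Cyp7b1* stayed between -1.10 (pseudocount 0.1) and -0.37 wherever it was tested. Of the 30 further pathway genes, 0 had an unadjusted p below 0.05. This count was 2 when all genes with any value above 0 were fitted, *Abcc2* and *Slc27a5*, neither of them among the 30, 2 with sample weights and 0 to 2 with each mouse left out, with 2 without OP mouse 2 or OP mouse 3. The ratio of *Slc51b* to *Slc51a* became -0.0411 without OP replicate 2, that of *Cyp7b1* to *Cyp27a1* 0.613 without OP replicate 3, 0.0885 without OR replicate 2 and 0.00290 without OR replicate 3, and that of *Nr0b2* to *Nr1h4* -0.0341 without OP replicate 2, where the target is too low for a reading. With each mouse left out, the log2 fold change ranged from -1.11 to 0.198 for *Cyp27a1*, from -0.411 to 0.0549 for *Nr1h4*, from -2.00 to 0.635 for *Slc51a* and from -0.0771 to 0.594 for *Slc51b*, and these ratios from -0.0411 to 2.17, from -0.570 to 0.613 and from -0.0341 to 0.425. Beyond the mouse left out, the cause was not tested. Same-numbered mice share only a number, with correlations of their deviations of -0.144, -0.157 and 0.0709. With the replicate block 1 member passed, *Fabp6*, with a limma-trend adjusted p of 0.730, and *Cyp7b1* did not. In this fit 409 genes were lower and 66 higher in OP mice of 13520 at an unadjusted p below 0.05. The log2 fold change of *Cyp7b1* was again -0.43 and 0 genes were called. Median-of-ratios scaling moved the median of all genes from -0.10 to 0.01 and turned no member's direction.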
